A study of Oryza sativa with 12 samples.

Results

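The 8 genes described here make jasmonate in rice, turn it into its active form, sense it, or act directly behind the receptor. They were taken by locus identifier from the 55986 entries of the count files: AOS1 (LOC_Os03g55800), AOS2 (LOC_Os03g12500), AOC (LOC_Os03g32314) and OPR7 (LOC_Os08g35740) for synthesis, JAR1 (LOC_Os05g50890) for activation, COI1a (LOC_Os01g63420) and COI1b (LOC_Os05g37690) for perception, and MYC2 (LOC_Os10g42430) for transcription. All 8 were in the files, and 7 had enough reads to be tested. AOS2 had too few. The files hold locus identifiers alone, so a name here is the published assignment of that locus. A RefSeq gene table (assembly ASM3414082v1) held 7 of the 8 names on the chromosome that the identifier gives, MYC2 being the exception.

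Jasmonate is a fatty acid hormone best known for defence against insects and wounding, and in rice it also takes part in flower opening and in responses to water shortage. Its synthesis starts from linolenic acid in the plastid, where allene oxide synthase and allene oxide cyclase form a ring-bearing precursor that OPR7 then reduces in the peroxisome. The hormone becomes active when JAR1 joins it to isoleucine, and the conjugate is sensed by a COI1 F-box protein together with a JAZ repressor. The JAZ protein is then destroyed, which frees MYC2 and related factors to turn on genes, the JAZ genes themselves among them.

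The libraries came from leaves of idr1-1, a mutant in the upland cultivar IAPAR9, and of wild type IAPAR9, sequenced as messenger RNA. Plants were 5 weeks old and stood in concrete tanks, where they were either dried to a soil moisture of 10% or not stressed. The 4 groups were idr1-1 drought, idr1-1 control, wild type drought and wild type control, with 3 biological replicates each and 12 libraries in all. From the published work on this mutant, idr1-1 carries its mutation in RGA1, which encodes the G protein alpha subunit. The labels give neither the lesion nor whether a library pools plants, and 1 mutant allele is analysed here. Where plants or leaves were pooled or shared between replicates, p-values measure the spread between these samples alone. The same holds where each treatment had its own tank, and tank and drought then cannot be told apart. How many tanks were used is not stated here.

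RGA1 (LOC_Os05g26890) was at 11.1 to 14.1 normalised CPM (a gene's count relative to the size of its library, adjusted for composition by the TMM method) in idr1-1 drought, 11.1 to 12.5 in idr1-1 control, 23.9 to 26.9 in wild type drought and 25.4 to 31.5 in wild type control leaves. Library totals ran from 19100254 to 25109639 counts. Replicates correlated at 0.989 to 0.992 on the log2 CPM scale across genes in 3 groups, but idr1-1 drought replicate 3 stood apart, at 0.960 and 0.971 with the other libraries of its group. The drought values of the members in idr1-1, and the calls of named genes there, are therefore also given without it. The labels call the tissue leaf, although their extraction protocol speaks of seedlings. The summed level of 5 leaf marker genes was 36659.2 to 63341.3 CPM in idr1-1 drought, with replicate 3 the lowest, 39108.2 to 43925.6 in idr1-1 control, 40096.8 to 46927.2 in wild type drought and 39909.4 to 45197.6 in wild type control. Both shoot apex markers summed to 0.0486 CPM or less. Of the 2 root markers LSI2 was at 0 in all 12 libraries, and LSI1, which carries the sum, was at 3.94 to 18.5 CPM in idr1-1 drought, 18.8 to 20.3 in idr1-1 control, 7.19 to 9.96 in wild type drought and 14.7 to 18.9 in wild type control. The 3 inflorescence markers summed to 0 to 0.778 CPM in idr1-1 drought, 2.62 to 4.3 in idr1-1 control, 0.0456 to 0.0851 in wild type drought and 1.81 to 4.22 in wild type control. Summed secondary wall markers were at 46.8 to 72.8 CPM in idr1-1 drought, 3.8 to 14.9 in idr1-1 control, 26.3 to 43.4 in wild type drought and 26.6 to 38.1 in wild type control. Summed levels of 7 clock genes did not overlap between treatments, at 1870 to 2545.5 CPM in idr1-1 drought against 3208.2 to 3452.7 in idr1-1 control, and at 2299.9 to 2506.2 in wild type drought against 3732.2 to 3952.6 in wild type control. In each genotype 1 of the 7 clock genes had a positive fold change in drought and 6 a negative one. LHY was called higher (1.57 in idr1-1 and 2.35 in wild type on the log2 scale), and PCL1 was called lower (-4.54 and -4.77). Each of the 3 secondary wall markers was called lower in idr1-1 than in wild type in control, at -2.14, -2.03 and -2.06. Under drought each was called higher in idr1-1 (2.58 to 3.15), and none was called in wild type (-0.34 to 0.30). What part the hour of harvest or the mix of cells had was not tested. This holds for the drought comparisons, the genotype comparisons and the difference of responses.

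AOS1, the allene oxide synthase gene that commits the fatty acid to jasmonate, was scattered in dry idr1-1 leaves and fell in dry wild type leaves. AOS1 was at 13.7, 5.93 and 18.8 CPM in idr1-1 drought, against 14.8, 12.7 and 12.7 CPM in idr1-1 control. One drought library lay above every idr1-1 control, one below and one among them. The log2 fold change in idr1-1 was -0.06 (SE 0.29, 95% interval -0.70 to 0.58, adjusted p = 0.89), and it became -0.45 (adjusted p = 0.19) without replicate 3 and 0.28 (adjusted p = 0.17) without replicate 2. Adjusted p-values here and below come from the quasi-likelihood test of edgeR, with Benjamini-Hochberg adjustment over all 22833 genes tested, and a gene is called where its adjusted p is under 0.05.

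In wild type, AOS1 was at 7.44, 7.33 and 8.34 CPM in drought, against 14.2, 17 and 14.7 CPM in control, and these groups did not overlap. The log2 fold change was -0.99 (SE 0.30, adjusted p = 0.018), a level 1.99-fold lower in drought. In these bulk samples, fewer cells of a type and less RNA per cell cannot be told apart. The call had little room: the adjusted p was 0.058 without wild type drought replicate 1, without wild type drought replicate 2, or without wild type control replicate 2, with log2 fold changes of -0.97, -0.96 and -0.91.

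Between genotypes AOS1 was not called. In drought it averaged 12.8 ± 6.49 CPM in idr1-1 and 7.7 ± 0.553 CPM in wild type (SD, n = 3 each), a log2 fold change of 0.74 (SE 0.30, adjusted p = 0.31). In control it averaged 13.4 ± 1.21 CPM in idr1-1 and 15.3 ± 1.52 CPM in wild type, a log2 fold change of -0.19 (SE 0.29, adjusted p = 0.7). The drought response in idr1-1 minus that in wild type was 0.93 on the log2 scale (SE 0.42, 95% interval 0.02 to 1.84, unadjusted p = 0.046, adjusted p = 0.31). Both results turned on single libraries. Without idr1-1 drought replicate 2 the difference of responses was 1.27 (adjusted p = 0.016) and the genotype difference in drought 1.08 (adjusted p = 0.0044), while without replicate 3 they were 0.54 (adjusted p = 0.43) and 0.34 (adjusted p = 0.46).

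AOS2, the second allene oxide synthase gene, was barely read in these leaves. It drew 1, 3 and 24 counts in idr1-1 drought, 12, 4 and 3 in idr1-1 control, 2, 1 and 2 in wild type drought, and 8, 7 and 6 in wild type control. Of the 28 counts in idr1-1 drought, 24 came from replicate 3, the library that also held the highest AOS1 level. The counting floor of 3 is 0.119 to 0.157 CPM in these libraries, and all 3 wild type drought libraries lay below it. With so few counts AOS2 was left out of the test and no fold change is given.

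**Figure D1:**
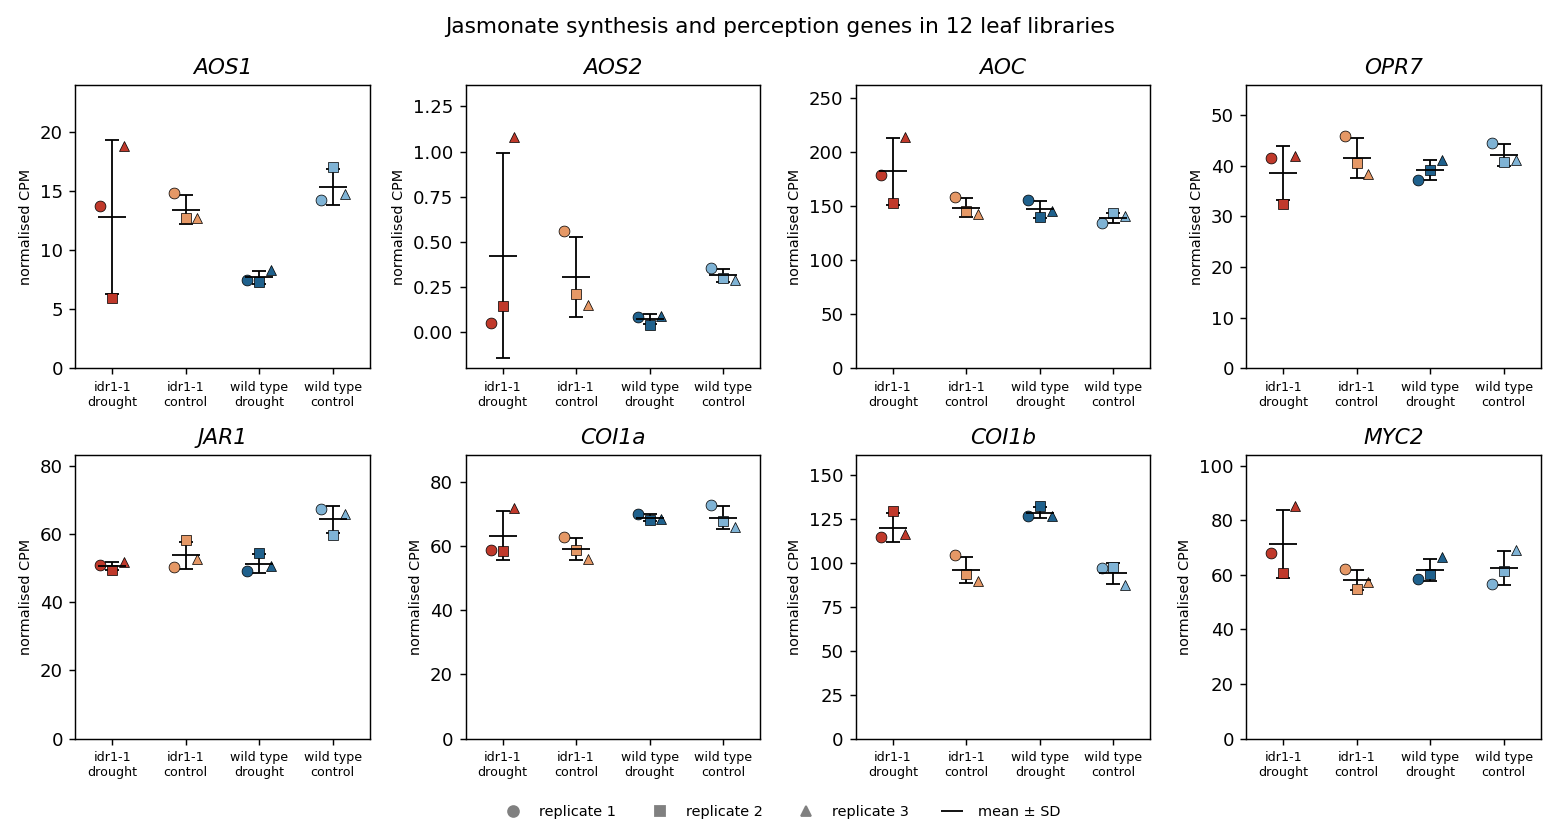
Normalised CPM (y axis, from 0 except for AOS2) of the 8 jasmonate genes in each of 12 leaf libraries, by group on the x axis, with replicates as symbols and bars for mean ± SD (n = 3). AOS1 lies between 7.33 and 8.34 CPM in wild type drought and spreads from 5.93 to 18.8 CPM in idr1-1 drought, while COI1b is higher in every drought library than in every control library.

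AOC, the allene oxide cyclase that closes the precursor's ring, passed in no comparison. It was at 178.8, 153.5 and 214.6 CPM in idr1-1 drought, 158.4, 145.4 and 142.7 in idr1-1 control, 155.6, 140.2 and 145.8 in wild type drought, and 134.5, 143.4 and 141 in wild type control. Only idr1-1 drought replicates 1 and 3 lay above all other libraries. The response to drought was 0.29 on the log2 scale in idr1-1 (SE 0.12, 95% interval 0.04 to 0.55, adjusted p = 0.07) and 0.08 in wild type (SE 0.12, 95% interval -0.18 to 0.33, adjusted p = 0.62). In idr1-1 it was 0.15 (adjusted p = 0.23) without replicate 3, and it passed the threshold without replicate 2, at 0.40 (adjusted p = 0.015). DESeq2 also called it, with 0.30 (adjusted p = 0.04). Between genotypes in drought AOC differed by 0.31 (SE 0.12, 95% interval 0.05 to 0.56, adjusted p = 0.28), or 0.16 (adjusted p = 0.32) without replicate 3. The responses differed by 0.22 (SE 0.16, 95% interval -0.14 to 0.57, adjusted p = 0.57), or 0.07 without replicate 3.

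OPR7, the peroxisomal reductase of the pathway, passed in no comparison. It averaged 38.6 ± 5.33 CPM in idr1-1 drought, 41.5 ± 3.92 in idr1-1 control, 39.1 ± 1.96 in wild type drought and 42.1 ± 2.11 in wild type control (SD, n = 3 each). Its drought response was -0.11 in both genotypes, with a 95% interval of -0.34 to 0.13 in each, and its genotype differences were -0.02 in control and in drought, with intervals of -0.25 to 0.21. Changes of more than 0.34 either way on the log2 scale thus lay outside the intervals of all 4 comparisons. Without idr1-1 drought replicate 3 the response in idr1-1 was -0.18 (adjusted p = 0.26) and the genotype difference in drought -0.09 (adjusted p = 0.66).

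In wild type drought, then, AOS1 was called lower, while the intervals of AOC and OPR7 included 0. The count of AOC per count of AOS1 in the same library, a ratio chosen after its values were seen, was 13, 25.9 and 11.4 in idr1-1 drought against 10.7, 11.4 and 11.3 in idr1-1 control. In wild type it was 20.9, 19.1 and 17.5 in drought against 9.47, 8.41 and 9.6 in control, with no overlap. Gene lengths are not in the files, so these ratios can be compared between libraries but do not give the relative abundance of the transcripts.

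JAR1, which conjugates jasmonate to isoleucine and so makes the form that COI1 senses, fell in dry wild type leaves and was not called in dry idr1-1 leaves. It was at 51, 49.6 and 51.9 CPM in idr1-1 drought against 50.4, 58.3 and 52.7 CPM in idr1-1 control, and these groups overlapped. It was at 49.1, 54.4 and 50.6 CPM in wild type drought against 67.5, 59.9 and 65.9 CPM in wild type control, with no overlap. The wild type control libraries were the highest of the 12.

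The JAR1 response to drought was -0.08 on the log2 scale in idr1-1 (SE 0.08, 95% interval -0.26 to 0.10, adjusted p = 0.47), and -0.10 (adjusted p = 0.4) without replicate 3. In wild type it was -0.33 (SE 0.08, adjusted p = 0.0067), or 1.25-fold lower in drought, a call that held in all 18 alternative settings (other scaling, filter, fit or tool, and each library left out in turn). The responses differed by 0.24 (SE 0.11, 95% interval -0.01 to 0.49, adjusted p = 0.33), or 0.22 without replicate 3, so the fall in wild type was not shown to differ from the response in idr1-1. In drought the genotypes differed by -0.02 (95% interval -0.19 to 0.16), or -0.04 without replicate 3. In control, JAR1 averaged 53.8 ± 4.06 CPM in idr1-1 and 64.4 ± 4.02 CPM in wild type (SD, n = 3 each) with no overlap, and the log2 fold change of -0.26 (SE 0.08, 95% interval -0.44 to -0.08) narrowly missed the threshold (adjusted p = 0.061). It passed with DESeq2 (-0.27, adjusted p = 0.017) and without idr1-1 drought replicate 3 (-0.26, adjusted p = 0.037), a library that enters this comparison through the shared estimate of spread.

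Of the 2 COI1 receptor genes, COI1b rose in drought in both genotypes and COI1a passed in neither. COI1b was at 114.4, 129.2 and 116 CPM in idr1-1 drought against 104.1, 93.6 and 89.6 CPM in idr1-1 control. It was at 126.2, 132 and 126.7 CPM in wild type drought against 96.8, 97.5 and 87 CPM in wild type control. In each genotype the lowest drought library lay above the highest control library.

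The COI1b response was 0.32 on the log2 scale in idr1-1 (SE 0.09, 95% interval 0.13 to 0.52, adjusted p = 0.015), a 1.25-fold rise, and 0.45 in wild type (SE 0.09, 95% interval 0.26 to 0.65, adjusted p = 0.0018), a 1.37-fold rise. The wild type call held in all 18 alternative settings. The idr1-1 call held without replicate 3 (0.34, adjusted p = 0.013) but was lost without idr1-1 drought replicate 2 (0.27, adjusted p = 0.058), without idr1-1 control replicate 2 (0.31, adjusted p = 0.058) or without idr1-1 control replicate 3 (0.28, adjusted p = 0.069). It was also lost when libraries were scaled by their totals alone (0.29, adjusted p = 0.062) and when the fit held only the idr1-1 groups (0.34, adjusted p = 0.051). The responses differed by -0.13 (SE 0.13, 95% interval -0.41 to 0.15, adjusted p = 0.68), or -0.11 without replicate 3. Genotypes differed by -0.10 in drought (95% interval -0.29 to 0.10), or -0.09 without replicate 3, and by 0.03 in control (95% interval -0.17 to 0.23).

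COI1a was at 58.9, 58.7 and 72.1 CPM in idr1-1 drought, 62.8, 58.8 and 56.1 in idr1-1 control, 70.2, 68.2 and 68.4 in wild type drought, and 72.9, 68 and 66.1 in wild type control. Apart from idr1-1 drought replicate 3, every idr1-1 library lay below every wild type library. The control difference between genotypes was -0.22 (SE 0.09, 95% interval -0.42 to -0.02, adjusted p = 0.14), and it passed at the same size (adjusted p = 0.04) without idr1-1 drought replicate 3. In drought it was -0.12 (SE 0.09, adjusted p = 0.61), or -0.24 (adjusted p = 0.093) without that library. The drought response was 0.09 in idr1-1 (95% interval -0.11 to 0.30), or -0.02 (adjusted p = 0.89) without replicate 3, and 0.00 in wild type (95% interval -0.20 to 0.20).

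The balance of the receptor genes is shown by the count of COI1b per count of COI1a in each library, again a ratio chosen after its values were seen and given without a test. It was 1.94, 2.2 and 1.61 in idr1-1 drought, against 1.66, 1.59 and 1.6 in idr1-1 control. In wild type it was 1.8, 1.94 and 1.85 in drought, against 1.33, 1.44 and 1.32 in control. The wild type groups did not overlap, while idr1-1 drought replicate 3 lay among the idr1-1 controls, and the idr1-1 control ratios were above all 3 of wild type control.

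**Figure D2:**
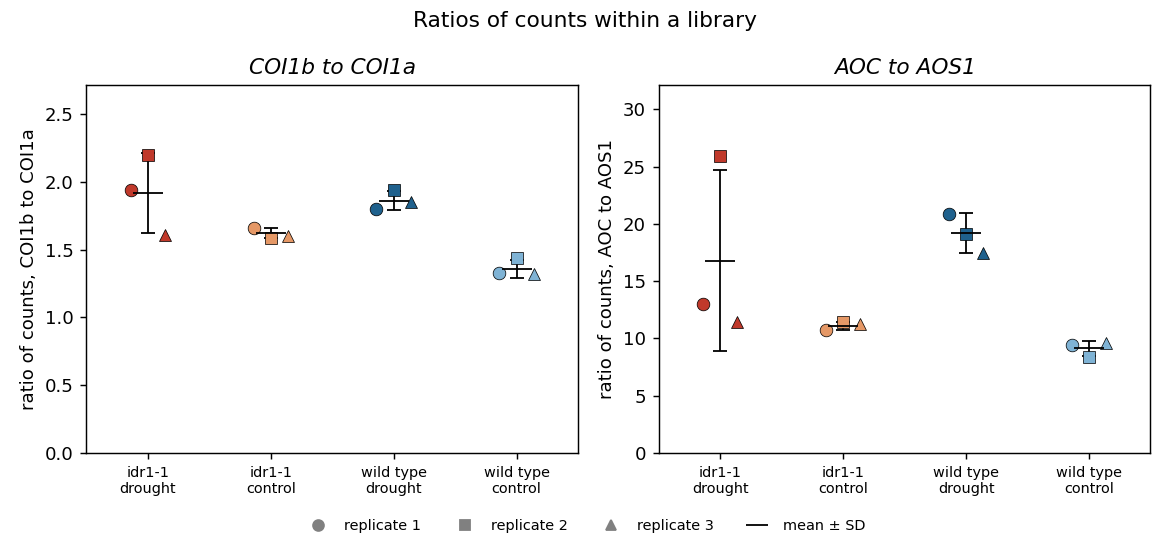
Ratios of counts within a library (y axes, from 0) for COI1b to COI1a on the left and AOC to AOS1 on the right, by group on the x axis, with replicates as symbols and bars for mean ± SD (n = 3). The COI1b to COI1a ratio is 1.8 to 1.94 in wild type drought and 1.32 to 1.44 in wild type control, and idr1-1 drought spreads most in both ratios.

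MYC2, the bHLH factor that JAZ proteins hold back, passed in no comparison. It was at 68, 60.5 and 85 CPM in idr1-1 drought against 62, 54.7 and 57.5 CPM in idr1-1 control, and at 58.6, 60.4 and 66.4 CPM in wild type drought against 56.6, 61.3 and 69 CPM in wild type control. Both pairs of groups overlapped. Its drought response was 0.29 in idr1-1 (SE 0.12, 95% interval 0.02 to 0.56, adjusted p = 0.086) and -0.01 in wild type (SE 0.12, 95% interval -0.28 to 0.26, adjusted p = 0.95). The idr1-1 value was 0.14 (adjusted p = 0.32) without replicate 3 and passed, at 0.40 (adjusted p = 0.027), without replicate 2. The responses differed by 0.31 (SE 0.17, 95% interval -0.08 to 0.69, adjusted p = 0.43), or 0.15 without replicate 3. In drought the genotypes differed by 0.20 (SE 0.12, 95% interval -0.07 to 0.47), or 0.05 without replicate 3, and in control by -0.10 (SE 0.12, 95% interval -0.37 to 0.17).

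Counted over the 7 tested genes, drought in idr1-1 gave 1 higher and 0 lower calls, where 35.6% of all genes tested were called (18.0% higher and 17.6% lower). Drought in wild type gave 1 higher and 2 lower, where 43.9% of all genes were called (22.4% higher and 21.5% lower), so 3 of 7 is near the background. The median log2 fold change of the 7 was 0.09 in idr1-1 and -0.01 in wild type, beside 0.01 and 0.00 over all genes. Groups did not overlap for 1 of the 7 in idr1-1 and 3 of the 7 in wild type, where 44.6% and 59.7% of all genes did not overlap.

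None of the 7 was called between genotypes by edgeR's test. In drought 0.184% of all genes were called (0.0438% higher and 0.140% lower), and DESeq2 called 0 of the 7. Of the 7, 2 had an unadjusted p below 0.05 there, beside 13.6% of all genes. In control, where 10.5% were called (5.54% higher and 4.93% lower), 2 had an unadjusted p below 0.05, beside 28.7% of all genes, and DESeq2 called 1. For the difference of responses 0.0482% were called (0.0131% higher and 0.0350% lower), and DESeq2 called 0 of the 7. AOS1 alone was below 0.05 unadjusted for that difference, beside 15.5% of all genes. The median of the 7 was -0.02 in drought, -0.10 in control and 0.22 for the difference of responses, beside 0.01, 0.00 and -0.01 over all genes. Groups did not overlap for 0 of the 7 in drought, where 15.1% of all genes did not, and for JAR1 and COI1a in control, where 39.1% did not.

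**Figure D3:**
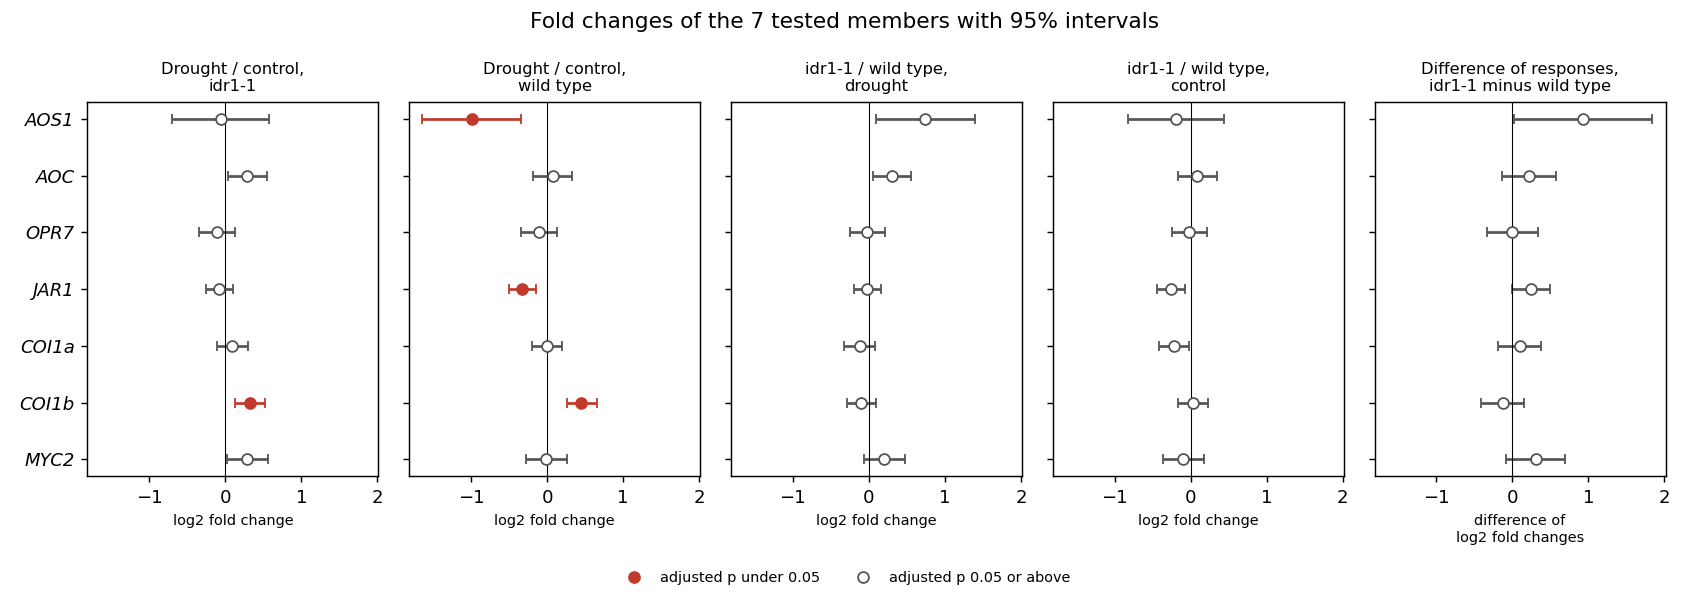
Log2 fold changes (x axes) with 95% intervals for the 7 tested jasmonate genes (rows) in 4 comparisons and, in the last panel, the drought response in idr1-1 minus that in wild type. Filled red points have an adjusted p under 0.05: COI1b for drought in idr1-1, and AOS1, JAR1 and COI1b for drought in wild type.

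Replicates of a group also differed over several members at once, in idr1-1 drought and elsewhere. In idr1-1 drought, replicate 3 exceeded the mean of replicates 1 and 2 in 6 of the 7 genes, with a median of 0.29 on the log2 scale, while over all genes 52.3% were higher with a median of 0.02. The excess was 1.02 for AOS1, 0.40 for MYC2, 0.37 for AOC and 0.29 for COI1a, against 0.05 for JAR1 and -0.07 for COI1b. Replicate 2 of the same group was higher than the mean of the others in 1 of the 7, with a median of -0.33, where 52.3% of all genes were higher with a median of 0.02. In idr1-1 control, replicate 1 was higher in 6 of the 7 (median 0.14) and replicate 3 in 0 of the 7 (median -0.11). Over all genes, 49.8% and 50% were higher in these libraries. The differences of the 3 replicates of a group sum to 0 for each gene, so their counts are not independent of each other. Of the 11 JAZ genes tested, 9 were higher in idr1-1 drought replicate 3 (median 0.38), but so were 10 in idr1-1 control replicate 1 (median 0.26), 10 in wild type drought replicate 3 (median 0.22) and 11 in wild type control replicate 3 (median 0.37). In the same order, the shares of all genes that were higher were 52.3%, 49.8%, 52.1% and 48.6%. One-sided counts of this kind were thus not limited to idr1-1 drought. JAZ7 was at 205, 124.3 and 308 CPM in idr1-1 drought, against 220.2, 199.6 and 191.1 CPM in idr1-1 control.

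The wider jasmonate pathway was described by a list of 30 further genes, of which 23 were tested. In idr1-1 drought 5 were higher and 4 lower, with a median log2 fold change of 0.18, and in wild type drought 6 were higher and 3 lower, with a median of 0.09. Both shares, 9 of 23, are near the backgrounds given above. Between genotypes in drought edgeR called 0 (2 with an unadjusted p below 0.05, 1 by DESeq2). In control 1 was higher and 0 lower in idr1-1 (3 unadjusted, 2 by DESeq2), where 5.54% of all genes were called higher and 4.93% lower. For the difference of responses edgeR called 0 (4 unadjusted, 1 by DESeq2). Over all genes, 13.6% had an unadjusted p below 0.05 between genotypes in drought, 28.7% in control and 15.5% for the difference of responses.

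The JAZ genes, which encode the repressors that COI1 removes, made up 11 of the 15 named pathway genes tested. Of these 11, 4 were higher and 0 lower in idr1-1 drought (median 0.40), where 18.0% of all genes were called higher and 17.6% lower. In wild type drought 3 were higher and 0 lower (median -0.02), where 22.4% were called higher and 21.5% lower. The remaining higher calls of the list, 1 in idr1-1 and 3 in wild type, were of loci without a name in the table. JAZ11 (LOC_Os03g08320) was at 13.4, 13 and 28.5 CPM in idr1-1 drought against 7.16, 5.36 and 4.85 in idr1-1 control, and at 18, 17.7 and 28.8 in wild type drought against 5.8, 7.75 and 7.49 in wild type control. JAZ12 (LOC_Os10g25290) was at 16.3, 13.6 and 28 CPM in idr1-1 drought against 10.4, 4.77 and 5.4 in idr1-1 control, and at 24.6, 12.9 and 22 in wild type drought against 7.43, 4.78 and 6.95 in wild type control. Each of these 4 pairs of groups was free of overlap. Of the 11 JAZ genes, drought and control did not overlap for 3 in idr1-1 and 4 in wild type. Over all genes, 44.6% did not overlap in idr1-1 and 59.7% in wild type.

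In idr1-1, JAZ11 rose by 1.66 on the log2 scale (SE 0.32, adjusted p = 0.0019) and JAZ12 by 1.48 (SE 0.36, adjusted p = 0.0075). These were 1.17 (adjusted p = 0.0022) and 1.10 (adjusted p = 0.023) without replicate 3, and the differences of responses between genotypes were 0.04 (95% interval -0.92 to 1.00) and -0.15 (95% interval -1.25 to 0.95). JAZ1 (0.27, adjusted p = 0.04) and JAZ10 (0.77, adjusted p = 0.035) also rose in idr1-1, and both calls were lost without replicate 3, at 0.22 (adjusted p = 0.099) and 0.63 (adjusted p = 0.098). Leaving out idr1-1 control replicate 3 took them to 0.20 (adjusted p = 0.16) and 0.57 (adjusted p = 0.13). Over the 18 alternative settings JAZ1 was called in 4 and JAZ10 in 10. JAZ6 rose in wild type by 0.46 (SE 0.15, adjusted p = 0.031), a call lost without wild type drought replicate 3 (0.34, adjusted p = 0.12), wild type control replicate 1 (0.34, adjusted p = 0.13) or wild type control replicate 2 (0.38, adjusted p = 0.11).

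COI2 (LOC_Os03g15880), the third COI gene of rice, went the other way from COI1b. It was at 54.1, 60.1 and 50.7 CPM in idr1-1 drought against 62.9, 63.9 and 74.2 in idr1-1 control, and at 53, 54.6 and 55.9 in wild type drought against 72.1, 73.8 and 73.2 in wild type control. The log2 fold change was -0.29 in idr1-1 (SE 0.09, adjusted p = 0.024) and -0.42 in wild type (SE 0.09, adjusted p = 0.0023). The idr1-1 call held without replicate 3 (-0.24, adjusted p = 0.045) and was lost without idr1-1 drought replicate 1 (-0.27, adjusted p = 0.066) or idr1-1 control replicate 3 (-0.21, adjusted p = 0.11). Counting every alternative setting, it held in 14 of 18, and the wild type call in 18. Of the 3 COI genes, 1 was thus called higher in drought, 1 was called lower and 1 was not called, in each genotype.

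BHLH148 (LOC_Os03g53020), a rice bHLH factor of early jasmonate responses that binds JAZ proteins, fell in idr1-1. It was at 23.8, 12.9 and 21.9 CPM in idr1-1 drought against 37.3, 29.7 and 30.6 in idr1-1 control, a log2 fold change of -0.73 (SE 0.18, adjusted p = 0.0076), and -0.83 (adjusted p = 0.0071) without replicate 3. The call was lost with only the idr1-1 groups in the fit (-0.71, adjusted p = 0.066). In wild type it was at 19.8, 20.9 and 20.7 CPM in drought against 23.3, 24.9 and 24 in control and was not called. The difference of responses was -0.50 (SE 0.25, adjusted p = 0.37).

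**Figure D4:**
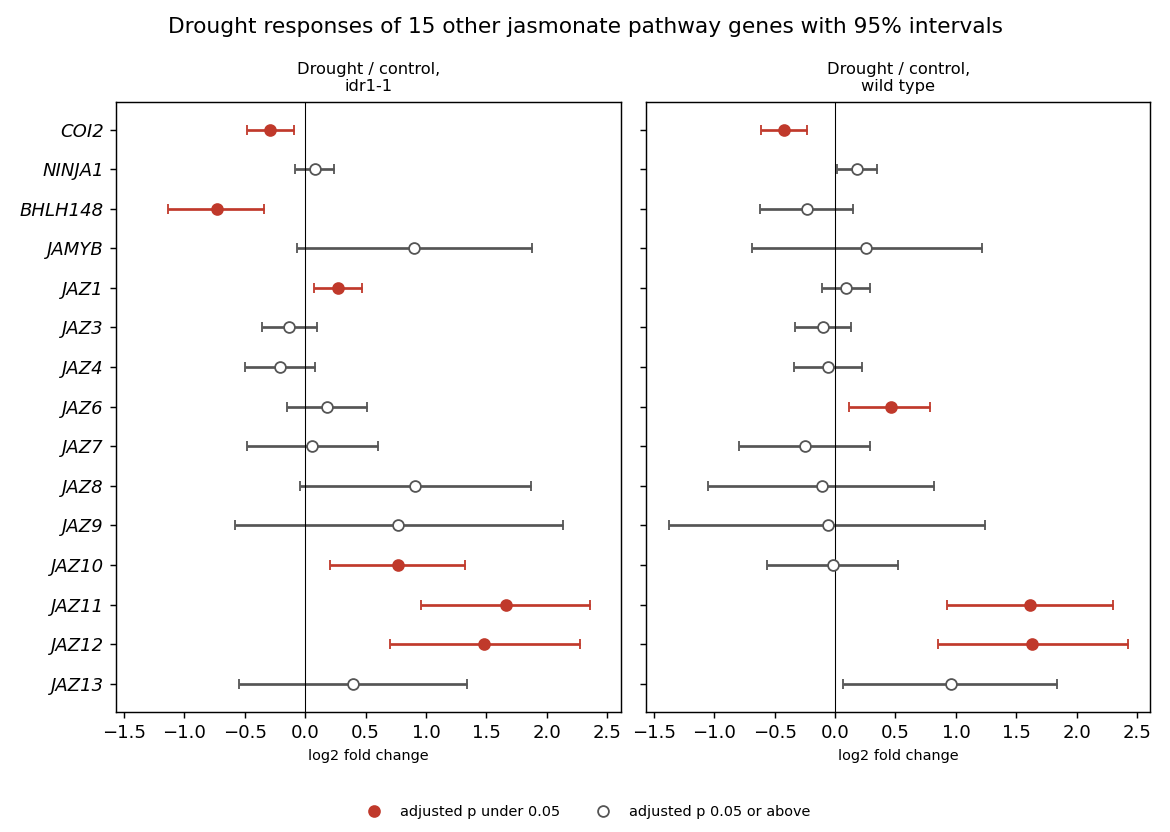
Log2 fold changes (x axes) of drought over control with 95% intervals for 15 other named jasmonate pathway genes (rows), idr1-1 on the left and wild type on the right. Filled red points have an adjusted p under 0.05: JAZ11 and JAZ12 lie to the right and COI2 to the left in both genotypes.

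The other 8 tested loci of the list were not paired with a name by the table, and those called in a comparison are given by identifier alone. LOC_Os08g39840 was at 0.594, 0.389 and 2.69 CPM in idr1-1 drought, 121.8, 29.1 and 77.9 in idr1-1 control, 4.85, 6.28 and 0.729 in wild type drought, and 9.47, 13.2 and 6.18 in wild type control. It was called higher in unstressed idr1-1, at 2.98 above wild type on the log2 scale (SE 0.66, adjusted p = 0.021). In idr1-1 it fell under drought (-5.92, SE 0.82, adjusted p = 2e-04), as it did without replicate 3 (-7.27, adjusted p = 0.00015). Its drought response in wild type was -1.27 (SE 0.69, adjusted p = 0.16). The difference of responses, -4.65 (SE 1.06, adjusted p = 0.1), was not called. The genotype call was lost without replicate 1 or 3 of either control group, where the value was 2.46 to 2.97 and the adjusted p 0.075 to 0.092. LOC_Os01g12160 fell in wild type drought, at 1.79, 2.21 and 2.41 CPM against 7.12, 7.92 and 6.47 CPM in wild type control (-1.75, SE 0.28, adjusted p = 0.00044). In idr1-1 it was at 5.59, 4.72 and 8.78 CPM in drought against 13.9, 7.32 and 9.21 CPM in control (-0.67, SE 0.26, adjusted p = 0.063). The dry genotypes did not overlap (1.58, SE 0.28, adjusted p = 0.054), and the difference of responses was 1.08 (SE 0.38, adjusted p = 0.22). LOC_Os11g05380 was called higher in wild type drought (3.93, SE 1.21, adjusted p = 0.021) from few reads, 229 counts in wild type drought against 14 in wild type control. That call was lost without wild type drought replicate 1 (3.34, adjusted p = 0.075) or any wild type control library. LOC_Os11g05380 responded by 0.05 in idr1-1 (adjusted p = 0.98), and the difference of responses, -3.87 (adjusted p = 0.3), was not called. LOC_Os06g01390 was called lower in drought in idr1-1 (-0.35, adjusted p = 0.015) and in wild type (-0.29, adjusted p = 0.03). LOC_Os12g37260 was called higher in idr1-1 (0.53, adjusted p = 0.029). Its levels were 64.7, 67.2 and 101.9 CPM in idr1-1 drought against 52.8, 63 and 46.6 in idr1-1 control. Replicate 3 of idr1-1 drought exceeded the mean of replicates 1 and 2 by 0.62. With 1 library left out, the fold change was 0.28 to 0.65. The response of this locus in wild type was 0.17 (adjusted p = 0.44), and the difference of responses was 0.36 (adjusted p = 0.5). In wild type LOC_Os02g02000 (0.40, adjusted p = 0.028) and LOC_Os12g05440 (3.27, adjusted p = 0.037, 143 counts against 14) were called higher. Their responses in idr1-1 were 0.36 (adjusted p = 0.055) and -0.17 (adjusted p = 0.93). The differences of responses, -0.05 (adjusted p = 0.94) and -3.44 (adjusted p = 0.35), were not called. In the order given, the calls from LOC_Os06g01390 onward held in 16, 12, 13, 14 and 12 of the 18 alternative settings.

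Likeness of profile was measured among the 7 members and the 23 pathway genes as the root mean square difference of log2 CPM over the 12 libraries, each gene centred on its own mean. AOC and MYC2 were nearest to each other, at 0.11, and both had JAZ1 next, at 0.16 and 0.13, against spreads of 0.18 and 0.16. AOS1 had JAZ7 nearest (0.32) and BHLH148 next (0.38), against its own spread of 0.51. These distances include idr1-1 drought replicate 3, which exceeded the mean of replicates 1 and 2 by 0.37 for AOC and 0.40 for MYC2. It did so by 1.02 for AOS1 and 0.95 for JAZ7, and likeness without it was not measured. COI1b was nearest to LOC_Os02g02000 (0.14) and NINJA1 (0.17), with a spread of 0.21, while JAR1 was nearest to COI2 (0.14), with a spread of 0.15. OPR7 and COI1a each spread by 0.12, which is less than the distance of 0.14 to their nearest genes, so neither lay nearer to them than to its own mean.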

How the data were processed

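Messenger RNA of rice leaves was sequenced in 12 libraries, grouped by genotype and stress from the labels. The deposited values are estimated counts per gene, not scaled to depth, made with HISAT2 2.1.0 and featureCounts 1.6.3, per the submitters' processing notes. Not given in the sources used here: build, annotation, strandedness and options of counting. As 13.8% of nonzero values were not whole, reads shared between copies, overlapping or antisense genes are uncertain. Values of AOS1 and MYC2 were not whole in 2 of 12 libraries each, and those of the other members were whole. Counts were rounded, which changed totals by at most 0.0011%.

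The analysis used edgeR 4.0.16 in R 4.3.3. After filterByExpr 22833 genes were tested. All 12 libraries, scaled by TMM, entered 1 quasi-likelihood fit of 4 group means (biological coefficient of variation 0.17, with 8 residual degrees of freedom). Benjamini-Hochberg adjustment covered every gene tested, and a call is an adjusted p under 0.05. A standard error is the fold change divided by the square root of F. DESeq2 1.42.0, other scaling and filters, a fit of the compared groups alone, a replicate block and each library left out were the alternatives. The steps were tested on simulated counts, with the same spread for every gene and library. Few genes were changed there and no library stood apart, unlike the data described here. The rates that follow belong to that setting and need not hold for the real comparisons. Known 2-fold changes were recovered at 75% for drought in wild type and 78% in idr1-1. Between genotypes this was 78% in control and 84% in drought, but for the difference of responses only 28%. Of the calls, 2.4% (difference of responses) to 7% (genotypes in control) were false. Chi-square comparison found no duplicate libraries. The 95% intervals of fold changes come from the same fit and include the spread between replicates. The floor of 3 counts covers counting error only.

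The members, the list of 30 pathway genes and the markers were chosen with earlier results of these data known. Pathway genes are given with values where they passed in at least 1 comparison. The name is used where the gene table held it on the right chromosome (17 of 30), and otherwise the identifier. Names come from published locus assignments, and 0 of the identifiers are in the table. Promoter motifs and protein identities were planned and are not analysed here.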

Additional observations from a re-analysis of the deposited data

How the results depend on the processing

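Of the members' calls, those of COI1b and JAR1 in wild type drought held in every setting tried, that of AOS1 in 15 of 18, and that of COI1b in idr1-1 was lost under 5 settings given above. Signs turned for uncalled values alone. The count of members called in idr1-1 drought (1) was 0 with library size alone or with only the idr1-1 groups fitted and 2 with DESeq2, and in control between genotypes (0) it was 1 with DESeq2. Pathway genes called in idr1-1 drought (9) were 4 with only those groups. Between genotypes in control (1) they were 2 with DESeq2, 2 with only those groups and 0 with the replicate block. In drought (0) they were 1 with DESeq2 and 1 without a filter, and for the difference of responses (0) 1 with DESeq2. Over all genes, calls between genotypes in control (2391) were 1437 with library size alone, 3822 with only those groups and 1112 with the replicate block. In drought (42) they were 18 with library size alone, 555 with DESeq2, 79 without a filter, 3 with only those groups and 14 with the block. For the difference of responses (11) they were 2 with library size alone, 708 with DESeq2, 82 without a filter and 0 with the block. Of the genes called, the share higher in idr1-1 was 52.9% in control (41.7% with library size alone) and 23.8% in drought (11.1% with library size alone, 51.2% with DESeq2), and the share with a higher response in idr1-1 was 27.3% (50% with library size alone, 61.7% with DESeq2). The cause was not tested.

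With 1 library left out, genes called were 6480 to 8590 for drought in idr1-1, 8185 to 11765 for drought in wild type, 9 (without idr1-1 drought replicate 1) to 1074 (without idr1-1 drought replicate 3) between genotypes in drought, 207 (without idr1-1 control replicate 3) to 4557 (without idr1-1 drought replicate 3) in control, and 0 (without idr1-1 drought replicate 1) to 582 (without idr1-1 drought replicate 2) for the difference. In the same order, members called were 0 to 2, 2 to 3, 0 to 1, 0 to 2 and 0 to 1, and pathway genes 4 to 12, 5 to 11, 0 to 2, 0 to 3 and 0 to 1.

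The log2 values that changed sign were these. Without a filter COI1a in wild type drought was 0.00 and the OPR7 difference of responses 0.00, and COI1b between genotypes in control was -0.05 with library size alone. With a library left out, the ranges in idr1-1 drought were -0.45 to 0.28 for AOS1, -0.18 to 0.00 for OPR7, -0.02 to 0.14 for COI1a and -0.03 to 0.15 for RGA1. In wild type drought they were -0.03 to 0.04 for COI1a and -0.08 to 0.07 for MYC2. Between genotypes they were -0.09 to 0.09 for OPR7 and -0.05 to 0.03 for JAR1 in drought, and -0.11 to 0.04 for OPR7 and -0.04 to 0.08 for COI1b in control. For the difference they were -0.07 to 0.11 for OPR7 and -0.02 to 0.14 for COI1a.

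No pairing of the samples by replicate number was seen: of 18 same-numbered pairs, 3 had deviations correlated above 0.1 (range -0.33 to 0.24). With 3 libraries a group, these correlations cannot exclude a weak link between same-numbered samples. With the replicate block no call of a member changed, the genotype call of LOC_Os08g39840 in control was lost (2.94, adjusted p = 0.054), and the OPR7 difference of responses was -0.01.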
